A study of Mus musculus with 5 samples.

Results

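The 53 genes described here encode axon guidance ligands and receptors: 18 semaphorins, 8 plexins, 6 genes of the Slit and Robo families, 7 netrins and netrin receptors, 6 ephrins and 8 Eph receptors. They were chosen by family and symbol, with earlier results of these data known, and all 53 were found among the 54532 genes of the count table. They do not cover every member of these families: Epha1, for example, lies outside the 53. RNA was sequenced from 5 libraries of sorted mouse adipose progenitors, which are stromal cells of fat that can become adipocytes. The cells came from subcutaneous fat (SAT) and visceral fat (VAT) of 30 wild-type mice on chow, aged 12 to 14 weeks. Cells positive for the endothelial protein CD31 or the leukocyte protein CD45 were gated out. The rest were sorted on CD26, a surface peptidase encoded by Dpp4 that marks interstitial progenitors of fat, and on CD142, the tissue factor encoded by F3. The groups were 1 SAT library titled CD26-CD142+, 1 SAT library titled CD26+CD142-, 1 VAT library of CD26+CD142+ cells and 2 VAT libraries of CD26-CD142+ cells. The labels do not say which mice went into which library, or whether the 2 libraries of the replicated group came from separate sorts, so p-values measure the spread between these libraries, which may be technical.

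The titles and the library names give the same gates in VAT and opposite gates in SAT. The SAT library titled CD26-CD142+ has a name that ends in CD26_2 and is called SAT library 2 here. The SAT library titled CD26+CD142- has a name that ends in CD142_1 and is called SAT library 1. In VAT, the CD26+CD142+ library is called double-positive and the CD26-CD142+ libraries CD26-negative. Levels are given as CPM, counts relative to the library's size after scaling by trimmed means (TMM). Dpp4 stood at 1007 CPM in SAT library 2 and 6.58 CPM in SAT library 1, against the order of the titles. It stood at 417 CPM in the double-positive VAT library and at 5.13 and 6.58 CPM in the CD26-negative VAT libraries. F3 went the other way in SAT, at 5.32 CPM in library 2 and 618 CPM in library 1. F3 stood at 99.1 CPM in the double-positive VAT library, against 379 and 241 CPM in the CD26-negative VAT libraries. No library was moved to another group for these values. Results that need the SAT gates are given by title and by name, and "CD26-named" refers to SAT library 2 together with the double-positive VAT library.

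Total counts ran from 21706345 to 25357403 per library, and the 53 genes took 0.315% of them in SAT library 2 and 0.15% in SAT library 1. Their share was 0.330% in the double-positive VAT library, against 0.167% and 0.307% in the CD26-negative VAT libraries. The share of mitochondrially encoded genes was 0.554% for SAT library 2 and 2.83% for SAT library 1. It was 0.620% in the double-positive VAT library, against 4.33% and 0.633% in the CD26-negative VAT libraries. Both shares thus split by the number that ends the library names: the 2 libraries numbered 1 had the lower share of the 53 genes and the higher mitochondrial share. The SAT libraries carry different numbers, so in the SAT pair this split and the gate cannot be told apart. The 6 progenitor markers were detected in all 5 libraries, with summed levels from 4373 to 20026 CPM. In SAT most of the sum was Col1a1, at 7561 CPM in library 2 and 14812 CPM in library 1. Single markers varied: Thy1 ran from 34.2 CPM in CD26-negative VAT library 2 to 383 CPM in SAT library 1. In sorted bulk RNA, fewer cells of a type and less RNA per cell cannot be told apart.

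Axon guidance proteins were first described as cues that steer growing nerve fibres, and they also act between cells in vessels, bone, immune tissue and fat. Most semaphorins act through plexins, and the secreted class 3 members usually need a neuropilin as coreceptor. Semaphorin 3E is the exception, since it binds plexin D1 directly. Slits bind Robo receptors, netrins bind Dcc, neogenin and the Unc5 receptors, and ephrins bind Eph receptors on a touching cell. In mouse fat, semaphorin 3E and plexin D1 are known from inflammation of visceral fat in obesity, and a cleaved fragment of Slit2 is known as a thermogenic factor.

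Of the 53 genes, 48 passed the filter on low counts. The other 5 were Sema5b, Slit1, Robo2, Dcc and Epha7. The netrin receptor gene Dcc had counts in 1 library, at 0.0917 CPM in CD26-negative VAT library 1. Sema5b reached 2.25 CPM in SAT library 1 and was at or under 0.138 CPM in the other libraries. At the other end, 36 genes had at least 1 CPM in every library and 18 had at least 10 CPM in every library.

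Per length of the gene, Slit3 had the highest level of all in each library. Slit3 encodes a secreted Robo ligand, and its level was 140 CPM per kilobase in SAT library 2 and 86.4 CPM per kilobase in SAT library 1. It was 156 CPM per kilobase in the double-positive VAT library, against 90.8 and 240 CPM per kilobase in the CD26-negative VAT libraries. The depots overlapped for Slit3, and the CD26-negative pair spanned the double-positive value. Slit3 alone took between 26.8% and 47.8% of the counts of the 53 genes. Of the Robo genes, Robo1 is described with the gates, Robo4, the Robo of blood vessels, had at most 1.31 CPM, and Robo2 had at most 0.275 CPM.

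The next levels per length belonged to ligands as well. Netrin-1 (Ntn1), the founding netrin, had 54.6 and 17.7 CPM per kilobase in SAT libraries 2 and 1, 38.7 in the double-positive VAT library, and 16.3 and 33.9 in the CD26-negative VAT libraries. Sema3c, Sema3b and Ntn4 followed, then the receptor gene Plxnb2, which ranged from 14.8 to 30.2 CPM per kilobase. Sema4c, a membrane semaphorin that binds plexin B2, ranged from 8.0 to 20.9 CPM per kilobase, and the ephrin gene Efnb1 from 6.43 to 21.1. Below Slit3, neighbours in this order overlapped in their values across libraries. Together these 8 genes made up between 68.0% and 81.1% of the summed level per length of the 53 genes.

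**Figure D1:**
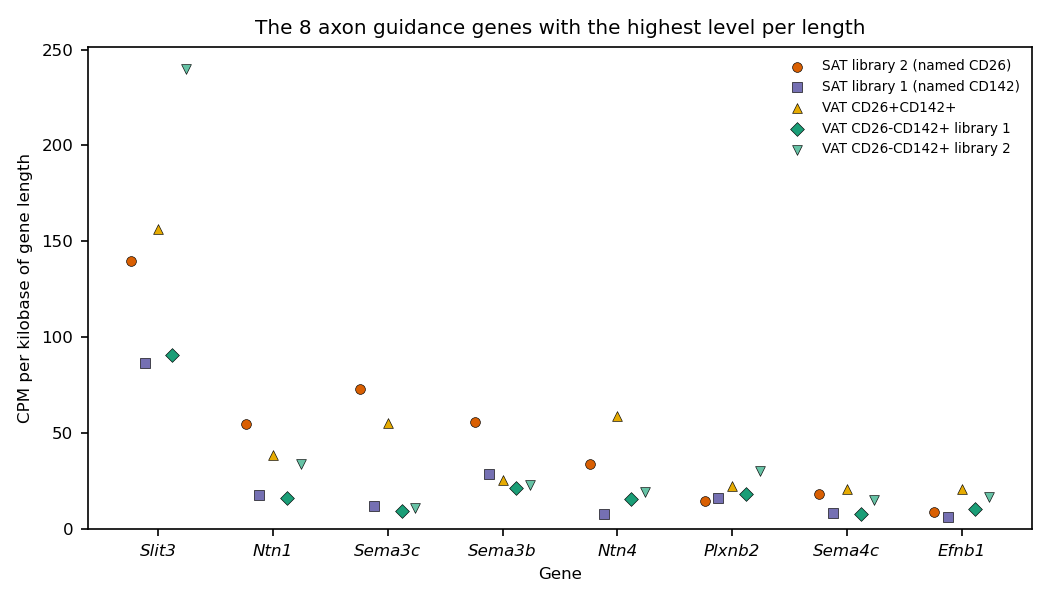
Level of the 8 axon guidance genes with the highest mean level per length, as CPM per kilobase of gene length on a linear axis. Each point is 1 library; Slit3 runs from 86.4 to 240 CPM per kilobase and lies above the other 7 genes in each of the 5 libraries.

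**Figure D2:**
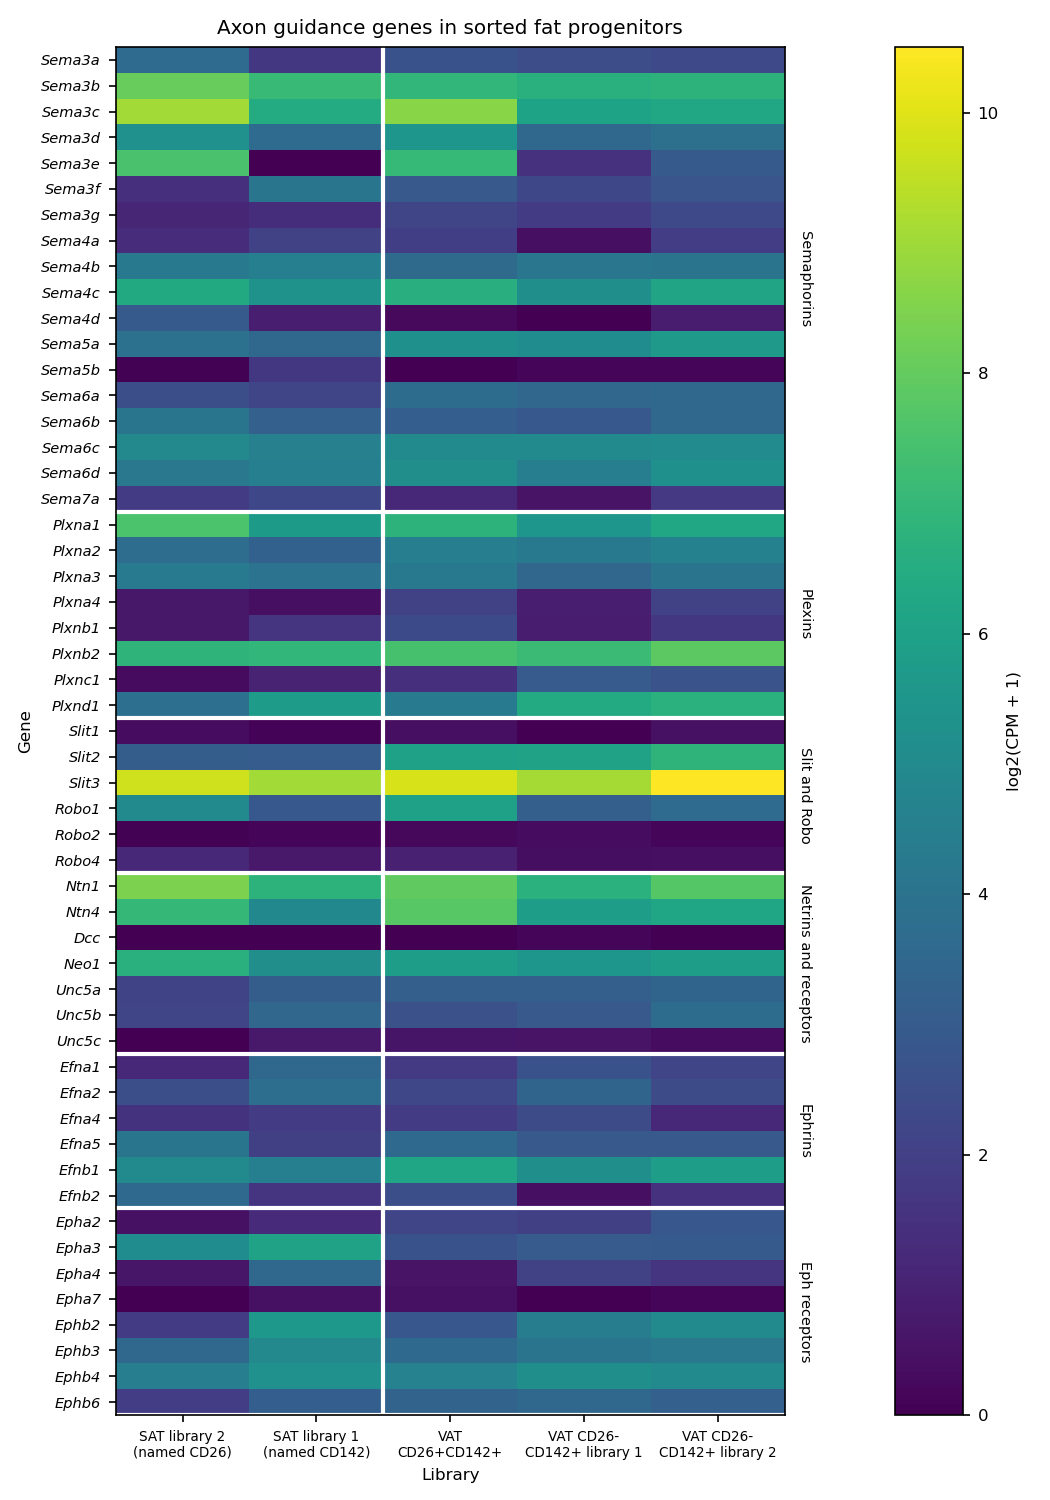
Levels of all 53 axon guidance genes in the 5 libraries as log2(CPM + 1), grouped by family, with SAT to the left of VAT. Sema3e is bright in SAT library 2 and the VAT CD26+CD142+ library, at 181 and 129 CPM, and dark in SAT library 1, at 0 counts.

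The gate comparison within VAT is the cleanest in its labels, since titles and names agree there. In VAT, CD26+CD142+ cells had higher RNA of Sema3e, Robo1 and Sema3c and lower RNA of Plxnd1 than CD26-CD142+ cells. These were 4 of the 48 tested genes (8.33%), 3 higher and 1 lower, at an adjusted p under 0.05 in edgeR's quasi-likelihood test. Over all 15920 tested genes the share was 1.6%, with 0.898% higher and 0.697% lower. The median log2 change of the 48 was 0.09, against -0.03 over all tested genes, and 22 of the 48 lay within 0.5 log2 units of 0.

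Sema3e encodes the secreted ligand of plexin D1 and lies at chr5:14025276-14256689 (mm10, plus strand; ENSMUSG00000063531). Its level was 129 CPM in the double-positive VAT library, against 1.79 and 6.84 CPM in the CD26-negative VAT libraries (4.31 ± 3.57, SD, n = 2). The gates did not overlap. With 1 library against 2, such non-overlap is common without any difference, and its share over all tested genes was not counted. The log2 change was 4.90 (SE 0.70), or 29.8-fold, with an adjusted p of 0.00904 in edgeR. In SAT, Sema3e had 181 CPM in library 2, from 4013 counts, and none in library 1 (0 counts), where 3 counts would be 0.13 CPM. Set against that floor of 3 counts, its level in SAT library 2 was 1394-fold higher. The exact 95% interval of the ratio for counting error began at 1133.5.

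Plxnd1, the gene of the receptor that semaphorin 3E binds, moved the other way. It lies at chr6:115954811-115995005 on the minus strand (ENSMUSG00000030123). Its level was 19.2 CPM in the double-positive VAT library, against 85.1 and 104 CPM in the CD26-negative VAT libraries (94.5 ± 13.3, SD, n = 2). The log2 change was -2.30 (SE 0.54, adjusted p 0.0416 in edgeR). SAT library 2 had 13.2 CPM and SAT library 1 had 53.9 CPM, a ratio of 0.244 with an exact 95% interval for counting error of 0.214 to 0.278. The library high in the ligand was thus low in this receptor in both depots.

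Promoters were looked up for the genes called between the VAT gates. A sequence is shown where the RefSeq start is also the start in the deposited table, as for Sema3e and Plxnd1. For Sema3c and Robo1 these starts lay 535 and 354843 bases apart. Each window shown is the 250 bases before the start that RefSeq gives (GRCm38.p6), written 5′ to 3′ on the gene's strand. Capitals mark GC boxes, the letters GGGCGG on either strand.
Sema3e, chr5:14025026-14025275, plus strand: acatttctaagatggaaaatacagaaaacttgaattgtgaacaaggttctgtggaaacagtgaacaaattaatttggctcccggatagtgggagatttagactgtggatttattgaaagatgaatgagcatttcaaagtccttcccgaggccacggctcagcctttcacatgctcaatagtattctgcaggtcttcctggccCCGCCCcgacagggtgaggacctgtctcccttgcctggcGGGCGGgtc
Plxnd1, chr6:115995006-115995255, minus strand: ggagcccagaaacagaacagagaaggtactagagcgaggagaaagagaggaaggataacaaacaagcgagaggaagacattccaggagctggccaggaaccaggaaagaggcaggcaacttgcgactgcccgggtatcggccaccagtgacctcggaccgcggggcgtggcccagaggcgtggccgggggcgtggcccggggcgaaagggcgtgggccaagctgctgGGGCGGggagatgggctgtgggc
The Sema3e window held 2 GC boxes and 7 CpG dinucleotides at 48% GC. The Plxnd1 window held 1 GC box and 16 CpG dinucleotides at 64.8% GC. Over 32851 RefSeq windows of the same length, 32.7% held a GC box, the median GC share was 52.4% and the median number of CpG dinucleotides was 6. The other motifs searched on both strands were TATAAA, in 12.4% of windows, CCAAT, in 33.8%, and the palindrome CACGTG, in 6.02%. None of these 3 was in either window, and no search motif overlapped another. Of the 53 genes, 45 matched a RefSeq promoter entry.

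Sema3c encodes a secreted semaphorin that signals through neuropilins with plexins, and it lies at chr5:17574281-17730268 (ENSMUSG00000028780). Its level was 394 CPM in the double-positive VAT library, against 67.4 and 77.0 CPM in the CD26-negative VAT libraries (72.2 ± 6.75, SD, n = 2). The log2 change was 2.45 (SE 0.47), or 5.45-fold, with an adjusted p of 0.0133 in edgeR. SAT library 2 had 523 CPM and SAT library 1 had 86.7 CPM, a ratio of 6.03 (5.75 to 6.33). The 2 high libraries were the CD26-named ones, and the other 3 lay between 67.4 and 86.7 CPM.

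Robo1, a Slit receptor gene at chr16:72308306-73046095 (ENSMUSG00000022883), had the same order. Its level was 63.3 CPM in the double-positive VAT library, against 8.02 and 11.8 CPM in the CD26-negative VAT libraries. The log2 change was 2.67 (SE 0.47), or 6.37-fold, with an adjusted p of 0.00728 in edgeR. SAT library 2 had 31.4 CPM and SAT library 1 had 6.40 CPM, a ratio of 4.90 (4.10 to 5.89). Its ligand genes did not share the order: Slit3 and Slit2 had log2 changes of -0.08 and -0.52 between the VAT gates and passed no test.

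Each of these 4 calls rests on 1 double-positive VAT library and on 1 residual degree of freedom, from the CD26-negative VAT pair. The calls held in the 6 alternatives that gave a test. Without SAT library 2, whose removal changes the filter and the scaling, 7 of the 48 genes passed instead of 4. Without either library of the CD26-negative VAT pair no spread is left to test against; the Sema3e log2 change was then 4.24 or 6.18 and the other 3 kept their sign.

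Sema3d, Ntn4 and Ephb2 lay outside the threshold in VAT. Sema3d, another secreted class 3 semaphorin, had 45.3 CPM in the double-positive VAT library, against 10.6 and 13.6 CPM in the CD26-negative VAT libraries (log2 change 1.90, SE 0.46, adjusted p 0.0511 in edgeR). Netrin-4 (Ntn4), a basement membrane netrin that binds laminin, had 220 CPM in double-positive and 58.8 and 72.5 CPM in CD26-negative VAT cells (log2 change 1.74, SE 0.45, adjusted p 0.0787 in edgeR). Neither passed. Ephb2, a receptor for B-type ephrins, had 6.31 CPM in the double-positive VAT library, against 20.4 and 30.6 CPM in the CD26-negative VAT libraries, and did not pass either (log2 change -2.01, adjusted p 0.0962 in edgeR). In the 6 alternatives that gave a test, Sema3d passed in 6 (adjusted p 0.00626 to 0.0495), Ntn4 in 4 (0.021 to 0.0764) and Ephb2 in 3 (0.0216 to 0.0965).

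**Figure D3:**
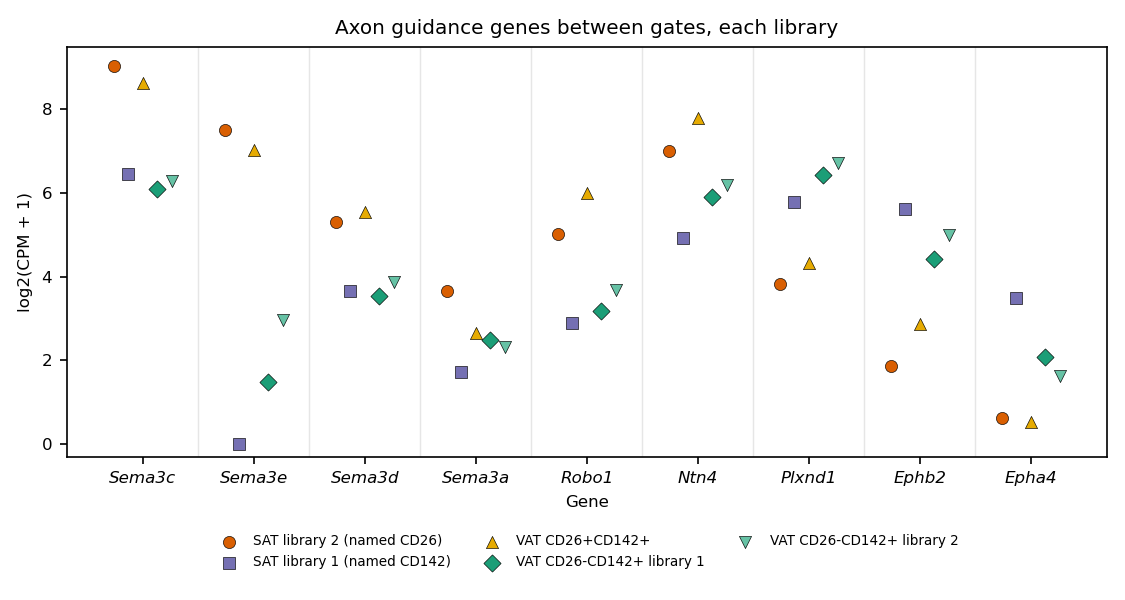
Levels of the axon guidance genes that stand apart between gates, as log2(CPM + 1), with 1 point per library. For Sema3c and Robo1 the SAT library 2 and VAT CD26+CD142+ points lie above the other 3, at 523 and 394 CPM for Sema3c; for Plxnd1 they lie below, at 13.2 and 19.2 CPM.

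The 2 SAT libraries, with 1 on each side, were compared by their values. Genes were counted as apart when the libraries differed at least 2-fold with 1 CPM added and the higher reached 10 CPM. By this rule 19 of the 48 genes (39.6%) qualified, against 13.6% of all tested genes. SAT library 2 was higher for 12 and lower for 7, where the shares over all tested genes were 6.78% higher and 6.79% lower. The 12 were Sema3a, Sema3c, Sema3d, Sema3e, Sema4c, Plxna1, Robo1, Ntn1, Ntn4, Neo1, Efna5 and Efnb2. The 7 were Sema3f, Plxnd1, Efna1, Efna2, Epha4, Ephb2 and Ephb3.

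Among the ligands, Ntn4 had 126 CPM in SAT library 2 and 29.1 CPM in SAT library 1 (ratio 4.34, 3.99 to 4.73), and Ntn1 had 343 CPM in library 2 and 111 CPM in library 1 (ratio 3.08, 2.95 to 3.23). Sema3d had 38.6 CPM in library 2 and 11.6 CPM in library 1, and Sema3a, the semaphorin first known for collapsing growth cones, had 11.7 CPM in library 2 and 2.29 CPM in library 1. Sema4c had 83.0 CPM in library 2 and 39.5 CPM in library 1. In VAT, Sema4c had 95.9 CPM in double-positive cells, against 36.8 and 70.1 CPM in CD26-negative cells, with no call (adjusted p 0.871 in edgeR). These netrin and semaphorin ligands were thus the higher ones in SAT library 2, and Sema3f, also a secreted semaphorin, was not. Efna5, a lipid-anchored A-type ephrin, had 16 CPM in library 2 and 2.99 CPM in library 1, and Efnb2, a transmembrane ephrin, had 10.9 CPM in library 2 and 2.08 CPM in library 1. Efna1 and Efna2, also A-type ephrins, ran in the opposite direction. Efna1 had 1.26 CPM in SAT library 2 and 10.4 CPM in SAT library 1, and Efna2 had 4.69 CPM in SAT library 2 and 12.8 CPM in SAT library 1. The ephrin ligands were therefore split between the 2 libraries. In VAT, Efna5 had 11.2 CPM in double-positive cells, against 6.56 and 6.62 CPM in CD26-negative cells, and Efnb2 had 4.70 CPM in double-positive cells, against 0.367 and 1.85 CPM in CD26-negative cells. Efna1 had 2.43 CPM in double-positive cells, against 5.27 and 3.57 CPM in CD26-negative cells, and Efna2 had 3.71 CPM in double-positive cells, against 9.35 and 4.26 CPM in CD26-negative cells. None of these 4 ephrin genes passed the VAT test. Sema3f, a class 3 semaphorin that signals through neuropilin 2, was at 1.67 CPM in SAT library 2 and 16.1 CPM in SAT library 1 (ratio 0.104, 0.0721 to 0.146). In VAT it had 6.64 CPM in double-positive cells, against 3.80 and 5.76 CPM in CD26-negative cells.

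Among the receptors, Plxna1, a coreceptor partner of neuropilins, had 183 CPM in SAT library 2 and 52.6 CPM in SAT library 1 (ratio 3.48, 3.27 to 3.72). Neo1, which encodes the netrin receptor neogenin, had 99.6 CPM in library 2 and 35.7 CPM in library 1 (ratio 2.79, 2.57 to 3.03). In VAT, Plxna1 had 111 CPM in the double-positive library, against 44.3 and 76.5 CPM in the CD26-negative libraries, and Neo1 had 55.9 CPM in double-positive cells, against 44.3 and 57.2 CPM in CD26-negative cells. The Neo1 values thus overlapped between the VAT gates, and Plxna1 was not called there (adjusted p 0.808 in edgeR).

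Of the 12 genes higher in SAT library 2, all 12 had a positive log2 change between the VAT gates, and of the 7 lower ones 6 had a negative change, Sema3f being the exception. The like share among all tested genes that were apart in the SAT pair was not counted, so these counts have no background. Over the 48 genes, 36 (75.0%) had the same sign in the VAT comparison and in the SAT pair, which share no library. Over all tested genes the share was 73.7%, so the shared direction is not particular to axon guidance genes. Contents other than the gate also differed between the SAT libraries: the 6 epithelial markers summed to 3.92 CPM in SAT library 2 and 116 CPM in SAT library 1, and the 5 Schwann cell markers to 5.77 CPM in SAT library 2 and 38.5 CPM in SAT library 1. Their part in the SAT differences was not tested.

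**Figure D4:**
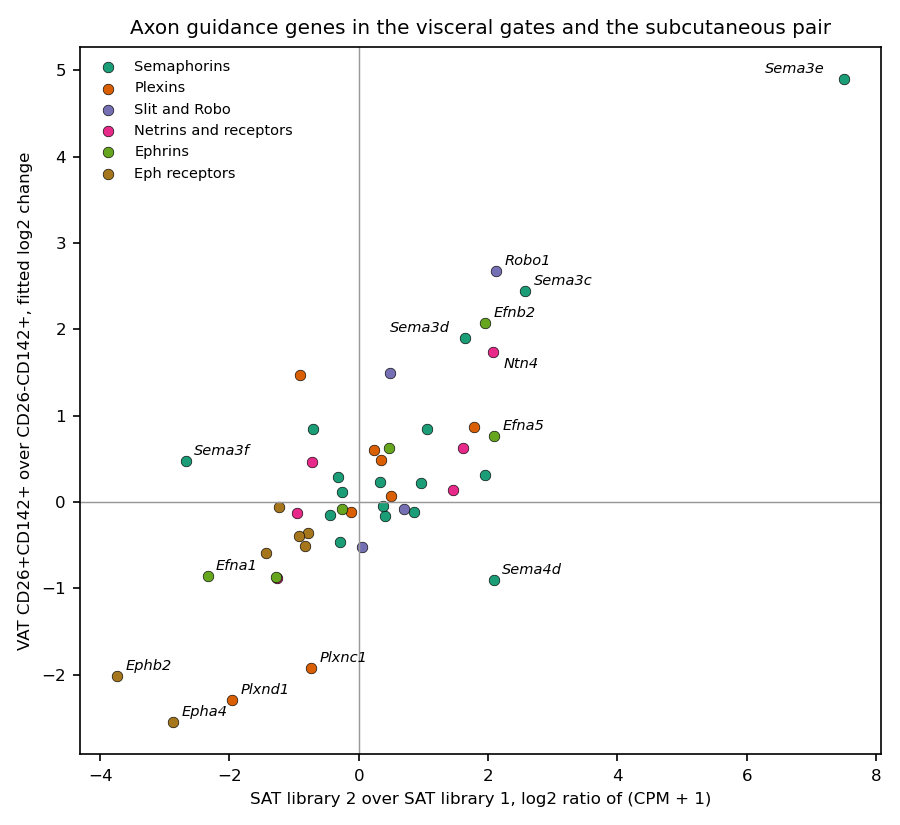
Each point is 1 of the 48 tested axon guidance genes, by family: horizontally the log2 ratio of (CPM + 1) of SAT library 2 over SAT library 1, vertically the fitted log2 change of VAT CD26+CD142+ over CD26-CD142+ cells. Sema3e lies at the upper right, with a vertical value of 4.90, and 36 of the 48 genes have the same sign on both axes.

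The tested Eph receptor genes among the 53 ran in 1 direction in both gate comparisons, while Epha1, an Eph receptor gene outside the 53, ran in the other. All 7 of the 53 that were tested were lower in SAT library 2 than in SAT library 1, with ratios from 0.0528 to 0.548. All 7 also had negative log2 changes between the VAT gates, from -2.55 to -0.05, and none passed the test. Over all tested genes, 38.4% were both lower in SAT library 2 and negative between the VAT gates. Epha1, named after its values were seen, had 25.8 CPM in SAT library 2 and 1.73 CPM in SAT library 1 (ratio 14.9, 10.8 to 21.1). In VAT, Epha1 had 26.2 CPM in double-positive cells, against 10.7 and 17.1 CPM in CD26-negative cells (log2 change 0.91, SE 0.49, adjusted p 0.767 in edgeR). Epha4, a receptor that takes both ephrin classes, had 0.541 CPM in SAT library 2 and 10.3 CPM in SAT library 1. In VAT it had 0.453 CPM in double-positive cells, against 3.25 and 2.11 CPM in CD26-negative cells (log2 change -2.55, SE 0.88, adjusted p 0.262 in edgeR). Ephb2 had 2.66 CPM in SAT library 2 and 47.9 CPM in SAT library 1. For Epha4 and Ephb2 the CD26-named libraries were the 2 lowest of the 5. Ephb3, also a receptor of B-type ephrins, had 10.5 CPM in SAT library 2 and 29.9 CPM in SAT library 1, and 10.9 CPM in the double-positive VAT library, against 15.4 and 17.5 CPM in the CD26-negative VAT libraries. The median log2 change of the 7 between the VAT gates was -0.50, against -0.03 over all tested genes.

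The 4 class 3 semaphorin genes on chromosome 5 shared an order of the libraries. Sema3d, Sema3a, Sema3e and Sema3c lie in that order within 5.35 Mb of chromosome 5, between positions 12383385 and 17730268, all on the plus strand. For all 4 of them both CD26-named libraries were above the other 3, an order that 16.8% of all tested genes had. Sema3b and Sema3f on chromosome 9 and Sema3g on chromosome 14 did not have this order. Sema3b had 268 and 138 CPM in SAT libraries 2 and 1, 123 CPM in the double-positive VAT library, and 101 and 109 CPM in the CD26-negative VAT libraries. Within each depot Sema3b was thus also higher in the CD26-named library, but SAT library 1 lay above the double-positive VAT library. This grouping by place was noticed after the values were seen and was not tested, and the order for Sema3a rests in VAT on 5.32 CPM in double-positive cells, against 4.63 and 3.96 CPM in CD26-negative cells.

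With depot as a term and CD26 read from the library names, Sema3c and Robo1 were higher and Plxnd1 was lower in CD26-named libraries. These 3 of the 48 genes (6.25%) compare with 0.597% of all tested genes, 0.32% higher and 0.276% lower. The log2 changes were 2.51 for Sema3c (SE 0.23, adjusted p 0.0381), 2.51 for Robo1 (SE 0.27, adjusted p 0.0417) and -2.18 for Plxnd1 (SE 0.25, adjusted p 0.0468), all in edgeR. Ntn4 missed the threshold with 1.90 (adjusted p 0.0513 in edgeR), as did Sema3d with 1.83 (adjusted p 0.0523). Sema3e, whose SAT library 1 has 0 counts, had a fitted change of 6.76 and an adjusted p of 0.138 in edgeR. Both CD26-named libraries lay above the other 3 for 13 of the 48 genes (27.1%), against 16.8% of all tested genes, and below them for 7 (14.6%), against 17.3%. Leaving out single libraries mostly changed the comparison itself. Without either SAT library only the VAT gates are compared, and without the double-positive VAT library only the SAT pair. Without CD26-negative VAT library 2, CD26 by name and the library number split the libraries the same way. With the double-positive library left out, the Robo1 and Plxnd1 calls were lost (adjusted p 0.0643 and 0.0806 in edgeR). Both CD26-named libraries end in the number 2, and with this number as a term none of the 3 passed. The adjusted p in edgeR was then 0.255 for Sema3c, 0.289 for Robo1 and 0.255 for Plxnd1, with log2 changes of 2.37, 2.27 and -2.41.

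With CD26 read from the titles, none of the 48 genes passed in edgeR, and 0 had an unadjusted p under 0.05. Over all tested genes the share was 0%, with 140 genes at an unadjusted p under 0.05, and DESeq2 called 16 genes and 0 of the 48. By title, the SAT and VAT gate changes differed for 11 of the 48 genes (22.9%), against 6.61% of all tested genes. The difference was positive for 4 of the 48 (8.33%), against 3.89% of all tested genes, and negative for 7 (14.6%), against 2.73%. By name, none of the 48 passed that test of the difference in edgeR, against 0.251% of all tested genes (0.0377% positive and 0.214% negative). There 5 of the 48 had an unadjusted p under 0.05, and DESeq2 called 1.

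Between depots, the lowest adjusted p-values among these genes belonged to Slit2, with SAT values below VAT, and Epha3, with SAT values above VAT, and neither passed the test. In edgeR, 0 of the 48 genes passed, against 0.0503% of all tested genes (0.0377% higher and 0.0126% lower). This fit holds depot alone, so its spread includes the differences between gates. The mix of gates also differs between the depots, since SAT has no double-positive library. At an unadjusted p under 0.05 there were 11 of the 48, and DESeq2 called 4. Both SAT libraries lay above all 3 VAT libraries for 5 genes (10.4%), against 9.64% of all tested genes. They lay below for 13 genes (27.1%), against 10.2%. The 13 held members of all 6 families: Sema3g, Sema5a, Sema6a, Sema6c, Plxna2, Plxna4, Plxnb2, Plxnc1, Slit2, Unc5a, Efnb1, Epha2 and Ephb6. Some of these margins were small. The higher SAT value and the lowest VAT value were 30.0 and 30.5 CPM for Sema6c and 7.66 and 8.08 CPM for Unc5a. For Ephb6 they were 7.70 and 8.43 CPM. The 5 were Sema3b, Sema4b, Sema4d, Sema7a and Epha3. Here too most margins were small. The lower SAT value and the highest VAT value were 138 and 123 CPM for Sema3b and 17.9 and 16.4 CPM for Sema4b. They were 0.822 and 0.774 CPM for Sema4d and 2.53 and 2.37 CPM for Sema7a. For Epha3 they were 33.9 and 7.20 CPM.

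Slit2, at chr5:47983138-48307733, had 7.58 and 7.31 CPM in SAT libraries 2 and 1 (7.45 ± 0.187, SD, n = 2). In VAT it had 62.8 CPM in double-positive cells and 65.8 and 115 CPM in CD26-negative cells (81.0 ± 29.0, SD, n = 3). The depots did not overlap, and the gates within each depot differed far less than the depots did. The log2 change of SAT over VAT was -3.44 (SE 0.39, adjusted p 0.146 in edgeR). Epha3, a receptor for A-type ephrins at chr16:63543534-63864175, had 33.9 and 65.5 CPM in SAT libraries 2 and 1 (49.7 ± 22.3, SD, n = 2). In VAT it had 5.32 CPM in double-positive cells and 7.20 and 6.79 CPM in CD26-negative cells (6.44 ± 0.990, SD, n = 3). Its log2 change was 2.95 (SE 0.35, adjusted p 0.146 in edgeR). Both genes passed in 3 of 12 alternatives: with no filter, with DESeq2 and with CD26 by library name as a term. Over these alternatives the adjusted p ran from 1.24e-13 to 0.473 for Slit2 and from 5.08e-09 to 1 for Epha3.

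Sema5a, a membrane semaphorin with thrombospondin repeats, had 14.2 and 10.4 CPM in SAT libraries 2 and 1, against 37.8 CPM in double-positive and 33.8 and 50.9 CPM in CD26-negative VAT cells (log2 change -1.73, SE 0.30, adjusted p 0.292 in edgeR). Sema6a, a transmembrane semaphorin that binds A-type plexins, had 4.78 and 3.59 CPM in SAT libraries 2 and 1, against 12.3 CPM in double-positive and 10.1 and 10.7 CPM in CD26-negative VAT cells (log2 change -1.40, SE 0.31, adjusted p 0.377 in edgeR). Both genes were picked out from those whose SAT libraries lay below all 3 VAT libraries. Larger fitted changes were found in genes with few counts. Plxnc1, the receptor gene of semaphorin 7A, had 0.226 and 1.04 CPM in SAT and 1.65, 7.06 and 5.46 CPM in the VAT libraries (log2 change -2.89, SE 0.98, adjusted p 0.610 in edgeR). Plxna4, a plexin best known from sensory and sympathetic axons, had 0.586 and 0.346 CPM in SAT and 3.09, 0.825 and 3.23 CPM in the VAT libraries (log2 change -2.34, SE 0.82, adjusted p 0.640 in edgeR). Sema4d, a membrane semaphorin known from lymphocytes, had 6.77 and 0.822 CPM in SAT and 0.206, 0 and 0.774 CPM in the VAT libraries (log2 change 3.51, SE 1.51, adjusted p 0.794 in edgeR). For Sema4d the difference thus lay in 1 SAT library. At higher levels, Efnb1, which encodes a transmembrane ephrin, had 30.9 and 22.2 CPM in SAT and 73.0, 37.0 and 57.8 CPM in the VAT libraries (log2 change -1.07, adjusted p 0.612 in edgeR). Plxnb2 had 115 and 124 CPM in SAT and 174, 143 and 233 CPM in VAT.

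**Figure D5:**
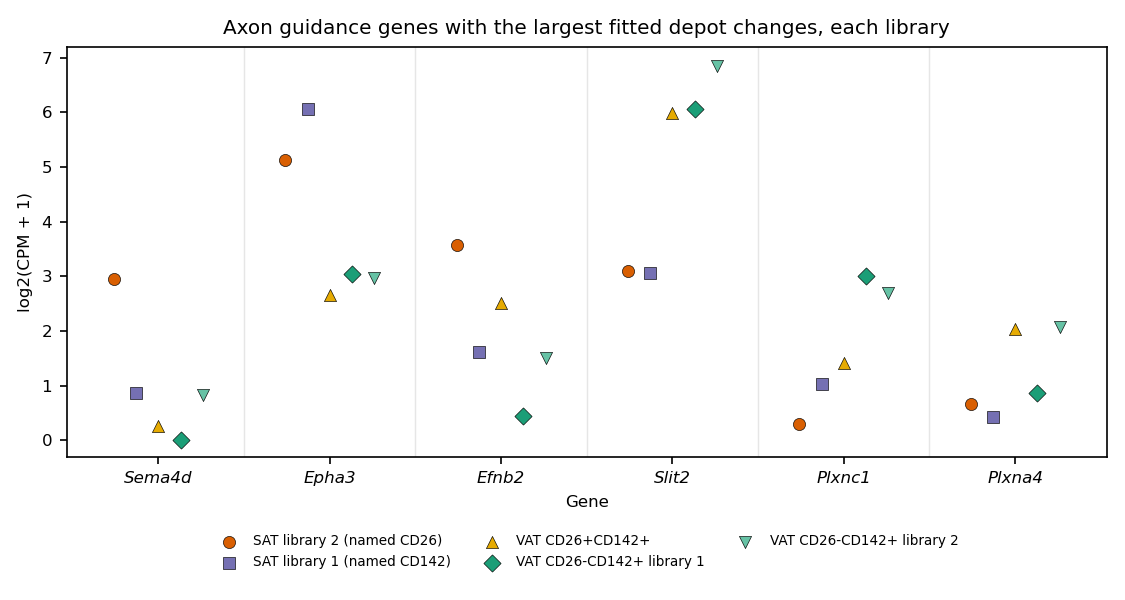
Levels of the 6 axon guidance genes with the largest fitted depot changes, as log2(CPM + 1), with 1 point per library. The SAT points of Slit2, at 7.58 and 7.31 CPM, lie below the VAT points, which start at 62.8 CPM; the SAT points of Epha3, at 33.9 and 65.5 CPM, lie above the VAT points, which end at 7.20 CPM.

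Markers of other cells moved with some of these comparisons. The 7 mesothelial markers, of the cell layer that covers visceral fat, summed to 4.19 and 64.7 CPM in SAT libraries 2 and 1, 338 CPM in the double-positive VAT library, and 115 and 170 CPM in the CD26-negative VAT libraries. Without Wt1, which visceral progenitors also express, the sums were 4.15 and 64.7 CPM in SAT libraries 2 and 1, 225 CPM in double-positive VAT cells, and 1.28 and 15.5 CPM in CD26-negative VAT cells. In SAT library 1 the sum was mostly Krt19, at 63.7 CPM, a keratin gene that the epithelial list also holds, while Msln was at 0 in both SAT libraries and Upk3b at 0.0865 CPM in SAT library 1. The 8 endothelial markers summed to 319 CPM in SAT library 2 and 34.2 CPM in SAT library 1, and to 302 CPM in the double-positive VAT library, against 74.1 and 75.5 CPM in the CD26-negative VAT libraries. Most of each sum was Tek, an angiopoietin receptor gene, at 290 and 19.9 CPM in SAT libraries 2 and 1, and 286 CPM in the double-positive VAT library, against 58.9 and 66.7 CPM in the CD26-negative VAT libraries. Without Tek the sums were 28.3 and 14.4 CPM in SAT libraries 2 and 1, and 16.1 CPM in the double-positive VAT library, against 15.2 and 8.82 CPM in the CD26-negative VAT libraries. The summed levels of mural, Schwann and adipocyte markers ran the same way as Plxnd1 and Ephb2. The 6 mural markers, of cells around small vessels, summed to 35.0 CPM in SAT library 2 and 134 CPM in SAT library 1, and to 18.9 CPM in the double-positive VAT library, against 60.5 and 81.6 CPM in the CD26-negative VAT libraries. Abcc9 made up 98.2 CPM of the sum in SAT library 1, and Myh11 made up 37.9 and 62.6 CPM in the CD26-negative VAT libraries. The pericyte marker Rgs5 ran against the sum, at 4.06 and 2.34 CPM in SAT libraries 2 and 1. In VAT, Rgs5 had 2.60 CPM in double-positive cells, against 2.06 and 1.38 CPM in CD26-negative cells. Between the VAT gates, 2 of the 6 mural markers had positive log2 changes and 4 had negative ones. The Schwann cell markers summed in VAT to 3.09 CPM in double-positive cells, against 14.7 and 12.3 CPM in CD26-negative cells. Sox10, which defines Schwann cells, was at 0 in 4 libraries and at 0.779 CPM in SAT library 1. The 4 adipocyte markers summed to 0.316 CPM in SAT library 2 and 16.1 CPM in SAT library 1, and to 0.701 CPM in the double-positive VAT library, against 8.48 and 17.5 CPM in the CD26-negative VAT libraries. The 4 neuron markers summed to 7.40 CPM in SAT library 2 and 35.2 CPM in SAT library 1. In VAT they summed to 15.3 CPM in double-positive cells, against 16.6 and 13.9 CPM in CD26-negative cells. The 6 lymphocyte markers stayed at or under 1.3 CPM in sum and the 6 macrophage markers at or under 27.2 CPM. The part of these cell types in the differences of the axon guidance genes was not tested.

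Genes that work with these ligands and receptors were followed in 3 lists: 20 coreceptors and modulators, 17 further family members and 48 signalling genes. Of these 85 genes, 84 were in the table and 70 were tested. In the VAT gate comparison 1 of the 70 rose and 0 fell (1.43%, against 1.6% of all tested genes), and the same gene alone rose by library name (against 0.597%). By title and between depots 0 of the 70 passed in edgeR, with 1 and 5 at an unadjusted p under 0.05. The difference between the SAT and VAT gate changes by title passed for 9 of the 70 (12.9%), 2 positive and 7 negative, against 6.61% of all tested genes. The median log2 change of the 70 between the VAT gates was 0.36, against -0.03 over all tested genes. The gene was Islr2, which encodes a leucine-rich repeat membrane protein of growing axons. It had 180 CPM in the double-positive VAT library, against 6.05 and 10.8 CPM in the CD26-negative VAT libraries (log2 change 4.42, SE 0.50, adjusted p 2.56e-04 in edgeR). It had 215 CPM in SAT library 2 and 2.29 CPM in SAT library 1. The VAT gates did not overlap, as for Sema3e.

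The neuropilins, the coreceptors of the other class 3 semaphorins, passed no test and were picked out after their values were seen. Nrp1 had 50.4 and 131 CPM in SAT libraries 2 and 1, and 69.4 CPM in the double-positive VAT library, against 97.9 and 134 CPM in the CD26-negative VAT libraries. Nrp2 had 14.1 and 3.42 CPM in SAT libraries 2 and 1, and 47.3 CPM in the double-positive VAT library, against 11.3 and 22.5 CPM in the CD26-negative VAT libraries. The CD26-named libraries were the 2 lowest for Nrp1, while for Nrp2 SAT library 2 lay within the range of the CD26-negative VAT libraries.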

How the data were processed

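Poly(A)-selected RNA of 5 sorted libraries was measured. The authors deposited raw read counts per gene, which were not normalized, and a gene length in bases (another unit, used for CPM per kilobase). The submitters' processing notes name mm10, CASAVA, featureCounts 1.5.0-p3 and HISAT2 2.0.5. The gene annotation's release and the strand setting are not given in the sources used here, so reads of overlapping or antisense genes may be shared. All sample columns were used (0 left out).

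Analysis used R 4.3.3 and edgeR 4.0.16: TMM scaling, filterByExpr (minimum count 10, depot as group; 15920 genes kept, 38612 removed), quasi-likelihood F tests with robust dispersion, and Benjamini-Hochberg adjustment over all kept genes at 0.05. The SE was taken as the absolute log2 change over the root of F. Depot was fitted with 3 residual degrees of freedom, the gates with 1 (4 groups), and CD26 with depot with 2. DESeq2 1.42.0 was an alternative. The code was tested on simulated counts. Intervals are exact at 95% and cover counting error only; 1 count was worth 0.0412 to 0.0458 CPM.

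Values in every library are given for genes past a test, among the 3 largest fitted changes in a direction, apart in the SAT pair, or among the 8 highest levels per length. Sema5a and Sema6a, like Epha1 and the neuropilins, fall outside this rule and were picked out. The genes and lists were chosen with earlier results of these data known. Alternatives were other scaling, no filter, DESeq2, mitochondrially encoded genes left out, CD26 or library number as a term, and each library left out.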

Additional observations from a re-analysis of the deposited data

Results flagged for a closer look

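The gate change in SAT differed from that in VAT for 11 genes when the SAT gates were read from the titles. The test was the interaction term of the 4-group fit in edgeR, adjusted over all tested genes at 0.05, and the values are log2 differences, SAT gate change minus VAT gate change. They were -5.04 for Sema3c, -3.63 for Sema3d, -19.92 for Sema3e, -2.67 for Plxna1, 4.33 for Plxnd1, -4.96 for Robo1, -3.86 for Ntn4, 3.90 for Efna1, -3.18 for Efna5, 6.78 for Epha4 and 6.18 for Ephb2. The Sema3e value is a fitted one that rests on 0 counts in SAT library 1 and is no bound. Read from the library names, the same test passed for 0 of the 48 genes in edgeR, with 5 at an unadjusted p under 0.05 and 1 called by DESeq2. The 2 readings reverse the sign of the SAT part. A gene whose SAT and VAT changes run alike by name therefore shows a difference by title. Dpp4, at 1007 CPM in SAT library 2 and 6.58 CPM in SAT library 1, is ordered by the names. F3, the other sort gene, is ordered by the names as well. The labels alone do not settle which reading is right, while the RNA of both sort genes follows the names.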

How the results depend on the processing

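Counts below are genes over the whole table, then axon guidance genes, past an adjusted 0.05. For depot, 8 and 0 became 70 and 2 with no filter, 465 and 4 with DESeq2, 83 and 2 with CD26 by library name as a term, and 0 and 0 with CD26 by title; leaving out 1 library gave 0 to 17 genes and 0 axon guidance genes. For the VAT gate, 254 and 4 became 491 and 7 with no filter and 357 and 7 with DESeq2; leaving out a SAT library gave 356 to 383 genes and 6 to 7 axon guidance genes. For CD26 by title, 0 and 0 became 16 and 0 with DESeq2, and leaving out 1 library gave 0 to 522 and 0 to 7. For CD26 by name, 95 and 3 became 775 and 7 with no filter, 1338 and 12 with DESeq2, and 112 and 5 without mitochondrially encoded genes; leaving out 1 library gave 138 to 2034 and 3 to 11. The difference between depots by title went from 1053 and 11 to 1621 and 12 with no filter. By name it went from 40 and 0 to 181 and 2 with no filter and 85 and 1 with DESeq2. By title, 3 gene values changed sign and passed in edgeR when a library was left out: Ephb2 at -2.00 without SAT library 2 (range over left-out libraries -2.00 to 4.16), and, without the VAT CD26+CD142+ library, Sema3c at -2.60 (-2.60 to 2.46) and Sema3e at -15.00 (-15.00 to 4.92). The library number that ends each name is not labelled as a batch, and deviations of same-numbered libraries correlated at 0.58, 0.57 and 0.04. The SAT deviations mirror each other by construction. The pairs at 0.58 and 0.57 also share the CD26 status by name, so these values cannot tell the gate from the library number. With this number as a replicate block, depot gave 5 genes and 0 axon guidance genes, CD26 by name 0 and 0, and CD26 by title 0 and 0. Of 1456 values of single named genes under alternatives, 1362 were counted as the same. That count includes values whose sign changed while neither fit passed 0.05. Where a fit gave no test, it means a shift smaller than the SE of the main fit. The causes of these shifts were not tested. In the CD26 fits, leaving out a SAT library compared the VAT gates alone, and leaving out the double-positive VAT library compared the SAT pair alone. With 1 library in 3 of the 4 groups, precision is limited by the number of libraries; counting intervals were not set against the spread between libraries.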
